A study of Mus musculus with 4 samples.

Results

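The 32 genes described here encode enzymes of the antioxidant response and factors and targets of the integrated stress response and the mitochondrial stress response. They were taken by symbol from a list, out of 32285 genes measured. The rule reads no expression value, but the list was chosen with earlier results of these data known. Counts of members set beside the share of all genes are therefore descriptions of a list that was not drawn independently of the data. They comprise 12 redox enzymes, most of them targets of the transcription factor NRF2, 8 transcription factors and signalling proteins of the integrated stress response, 7 enzymes of amino acid and one-carbon metabolism, and 5 mitochondrial chaperones and proteases. All 32 symbols were present in the 4 libraries. Ddit3 was listed under 2 gene identifiers, of which the second had 0 UMIs in all 4 libraries and was left out.

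The antioxidant response begins when oxidants or electrophiles modify the adaptor KEAP1, which otherwise sends NRF2 for degradation. NRF2 then binds antioxidant response elements and raises genes for glutathione synthesis, thioredoxin recycling and NADPH supply. The integrated stress response begins when kinases that sense amino acid shortage, misfolded protein in the endoplasmic reticulum, haem shortage or viral RNA phosphorylate the translation factor eIF2alpha. General translation then falls, while ATF4 is translated more and, with partners such as CHOP (encoded by Ddit3), raises genes for amino acid uptake and synthesis. Faults of the mitochondrial respiratory chain can feed into the same pathway, often together with mitochondrial chaperones.

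The libraries were single-cell RNA-seq (10x Genomics 3′ v3.1) of leukocytes from 8-week-old male C57BL/6 mice, wild-type or deficient in Ndufa4, a protein associated with respiratory complex IV. All mice, both genotypes alike, carried subcutaneous B16-F10 tumours, a melanoma line of C57BL/6 origin, and were taken 18 days after implantation. Tumour cells were sorted as CD45+ and spleen cells as CD45+ CD11b+. Equal numbers of cells from the mice of a genotype, 3 according to the design text, were pooled, so that each of the 4 groups (wild-type spleen, Ndufa4-deficient spleen, wild-type tumour, Ndufa4-deficient tumour) was 1 library. The labels do not say how Ndufa4 was deleted or in which cells. With 1 library per group no test of genotype or organ was possible: intervals in square brackets are exact 95% intervals that cover counting error only, and differences between mice, sorts and lanes were not measured. The cell classes of 1 library share that library and are not independent of each other.

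The libraries held 4798 to 8107 barcodes and 46499361 to 63560706 UMIs, and 4019 to 7530 cells passed quality limits, with medians of 4465 to 10534 UMIs per cell. Pairs of libraries shared 6 to 22 cell barcodes. Cells were placed in classes by marker genes, and a class was compared where both libraries held at least 50 cells: 10 classes in the tumour, 8 in the spleen, and 6 in both organs. Ndufa4 in tumour mononuclear phagocytes was 297 in the wild-type library, in UMIs scaled to a class total of 1e+06 (CPM), and 6.24 in the deficient library, and in spleen neutrophils 67.6 and 0. The highest level in a deficient class was 20.2 CPM, in tumour B cells, against 211 in wild-type. The make-up of the tumour libraries differed: phagocytes were 1168 cells (29.1% of cells kept) in wild-type and 896 (19.2%) in the deficient library, neutrophils 581 (14.5%) and 76 (1.63%), and CD8 T cells 447 and 1312.

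Promoters of 4 genes that recur in the results are shown here because they hold the letters of elements that the pathways' factors are known to bind. Each is the 250 bases upstream of the RefSeq transcript start in GRCm38.p6, read 5′ to 3′ on the gene's strand. Capitals mark matches, on either strand, to the antioxidant response element core TGACNNNGC or to the C/EBP-ATF response element TGATGNAA, where N is any base. The windows are chr3:50443614-50443863 on the minus strand for Slc7a11, chr4:116685349-116685598 on the plus strand for Prdx1, chr2:119350992-119351241 on the plus strand for Chac1 and chr6:7693210-7693459 on the minus strand for Asns.
Slc7a11: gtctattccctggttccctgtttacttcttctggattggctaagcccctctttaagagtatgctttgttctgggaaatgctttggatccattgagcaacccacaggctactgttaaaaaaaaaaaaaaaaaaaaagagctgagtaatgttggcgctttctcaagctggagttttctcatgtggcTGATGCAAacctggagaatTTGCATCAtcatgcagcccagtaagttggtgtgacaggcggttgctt
Prdx1: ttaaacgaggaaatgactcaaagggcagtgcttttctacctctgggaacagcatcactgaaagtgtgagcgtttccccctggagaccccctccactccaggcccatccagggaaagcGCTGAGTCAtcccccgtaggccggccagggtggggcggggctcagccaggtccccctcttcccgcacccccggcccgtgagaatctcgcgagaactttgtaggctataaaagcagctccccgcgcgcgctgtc
Chac1: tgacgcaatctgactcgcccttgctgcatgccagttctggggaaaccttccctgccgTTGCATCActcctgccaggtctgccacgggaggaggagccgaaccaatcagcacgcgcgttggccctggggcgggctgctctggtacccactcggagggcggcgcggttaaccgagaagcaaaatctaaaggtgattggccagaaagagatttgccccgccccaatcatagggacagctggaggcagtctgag
Asns: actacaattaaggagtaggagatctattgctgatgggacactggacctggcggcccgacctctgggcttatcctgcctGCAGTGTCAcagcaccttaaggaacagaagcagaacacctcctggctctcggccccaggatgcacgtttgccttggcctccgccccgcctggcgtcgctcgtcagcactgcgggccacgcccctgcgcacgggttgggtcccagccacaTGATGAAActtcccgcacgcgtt
In Slc7a11, the cystine importer, TGATGCAA lies 66 to 59 bases before the start and its reverse complement TTGCATCA 47 to 40 bases before it. Prdx1, a peroxiredoxin, has GCTGAGTCA, the antioxidant core read on the other strand, 133 to 125 bases before the start. Chac1, which degrades glutathione, has TTGCATCA 193 to 186 bases before it. Asns, asparagine synthetase, holds both kinds, GCAGTGTCA at 172 to 164 and TGATGAAA at 23 to 16 bases before the start. RefSeq promoters matched 28 of the 32 members (Gclc, Gsr, Aldh1l2 and Hspa9 were not matched), with 35 promoters in all. The antioxidant core was in 7 of these 35 (20%), of Asns, Gclm, Lonp1, Phgdh, Prdx1, Sesn2 and Txnrd1, and in 3338 of 32851 promoters of the same length over all genes (10.2%). The C/EBP-ATF letters were in 5 of 35 (14.3%), of Asns, Chac1, Fgf21, Pycr1 and Slc7a11, against 1134 of 32851 (3.45%). These are matches of letters only, and no binding was measured.

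In wild-type mice Slc7a11, Ddit3, Atf4, Atf5 and Sesn2 were highest in tumour neutrophils among the 18 classes compared. Slc7a11, which exchanges glutamate for cystine and so feeds glutathione synthesis, reached 1401 CPM [1351, 1452] there and 376 [360, 392] in spleen neutrophils, against a median of 15.9 over the 18 classes. Ddit3 was 332 CPM [308, 358] in tumour neutrophils, 107 in spleen neutrophils and 26.6 in the median class. Atf4, the central factor of the response, was 319 CPM in tumour neutrophils, 169 in tumour B cells and 67.4 in the lowest class. Atf5, a related factor, was 30.7 CPM in tumour neutrophils and 10.5 in the next class, migratory dendritic cells. Sesn2, a sensor of leucine that restrains mTORC1, was 158 CPM in tumour neutrophils and 89.3 in spleen neutrophils.

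Gsr, Taldo1 and Txn1 stood highest in spleen neutrophils. Gsr, glutathione reductase, was 2075 CPM in spleen neutrophils, 1055 in spleen classical monocytes and 28.0 in tumour CD4 T cells, a 74.1-fold range. Taldo1, transaldolase of the pentose phosphate pathway, was 2399 CPM in spleen neutrophils and 956 in spleen classical monocytes. Txn1, thioredoxin, was 1640 CPM in spleen neutrophils and 1284 in tumour neutrophils. Chac1 was 12.4 and 12.3 CPM in these same classes, with overlapping intervals. Spleen neutrophils were also the lowest of the 18 classes for 8 members. These were Prdx1 (20.5 CPM, against 1015 in tumour phagocytes, 49.6-fold), mitochondrial superoxide dismutase Sod2 (16.9 against 175), the chaperones Hspd1 (15.9), Hspe1 (10.4) and Hspa9 (8.05), the one-carbon enzymes Mthfd2 (4.03) and Shmt2 (0.671), and the protease subunit Clpp (6.04).

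Hspd1, Hspe1, Phgdh, Psat1 and Asns were highest in tumour lymphocytes, and Mthfd2 in migratory dendritic cells. Hspd1 and Hspe1, the mitochondrial HSP60 and its partner HSP10, were 295 and 485 CPM in tumour B cells and 294 and 402 in tumour CD8 T cells. Their genes lie head to head on chromosome 1 (GRCm38, chr1:55077835-55088243 minus and chr1:55088132-55091307 plus) with overlapping 5′ ends. Phgdh, the first enzyme of serine synthesis, was 116 CPM in tumour CD8 T cells and 90.4 in tumour B cells. Psat1, the next enzyme of that pathway, and Asns were also highest in CD8 T cells, at 54.2 and 17.6 CPM. For Hspd1, Phgdh, Psat1 and Asns the interval of the highest class overlapped that of the next. Mthfd2 was 139 CPM in migratory dendritic cells and 66.4 in CD8 T cells.

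Tumour phagocytes had the highest levels of Gdf15, a secreted stress cytokine, at 34.2 CPM, with 17.3 in migratory dendritic cells. They also led for Prdx1 and Sod2, and for Srxn1, sulfiredoxin, at 23.6 CPM, where tumour neutrophils at 19.4 overlapped. Spleen red pulp macrophages, which recycle red cells, led for Gclm and Gclc, the subunits of the enzyme that starts glutathione synthesis, at 119 and 71.5 CPM. The Gclc level rests on 9 UMIs [32.7, 136] and its interval overlapped that of NK cells, and the Prdx1 interval of phagocytes overlapped that of red pulp macrophages (834 CPM). Txnrd1, thioredoxin reductase, was highest in migratory dendritic cells, 153 CPM against 115 in phagocytes.

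Several members were near the detection limit in leukocytes. Fgf21, a stress hormone, had 2 UMIs over all barcodes of the 4 libraries. Over the 18 wild-type classes the highest levels were 2.18 CPM for the quinone reductase Nqo1, 2.48 for malic enzyme Me1, 0.649 for the folate enzyme Aldh1l2 and 3.15 for the proline enzyme Pycr1. Me1 and Aldh1l2 were higher in the few cells gated as melanoma cells, 47 in the wild-type and 22 in the deficient tumour library. There Me1 was 55.7 and 44.5 CPM and Aldh1l2 55.2 and 6.10. Pycr1 was 34.8 and 27.2 CPM in spleen plasma cells, a class too small to compare.

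**Figure D1:**
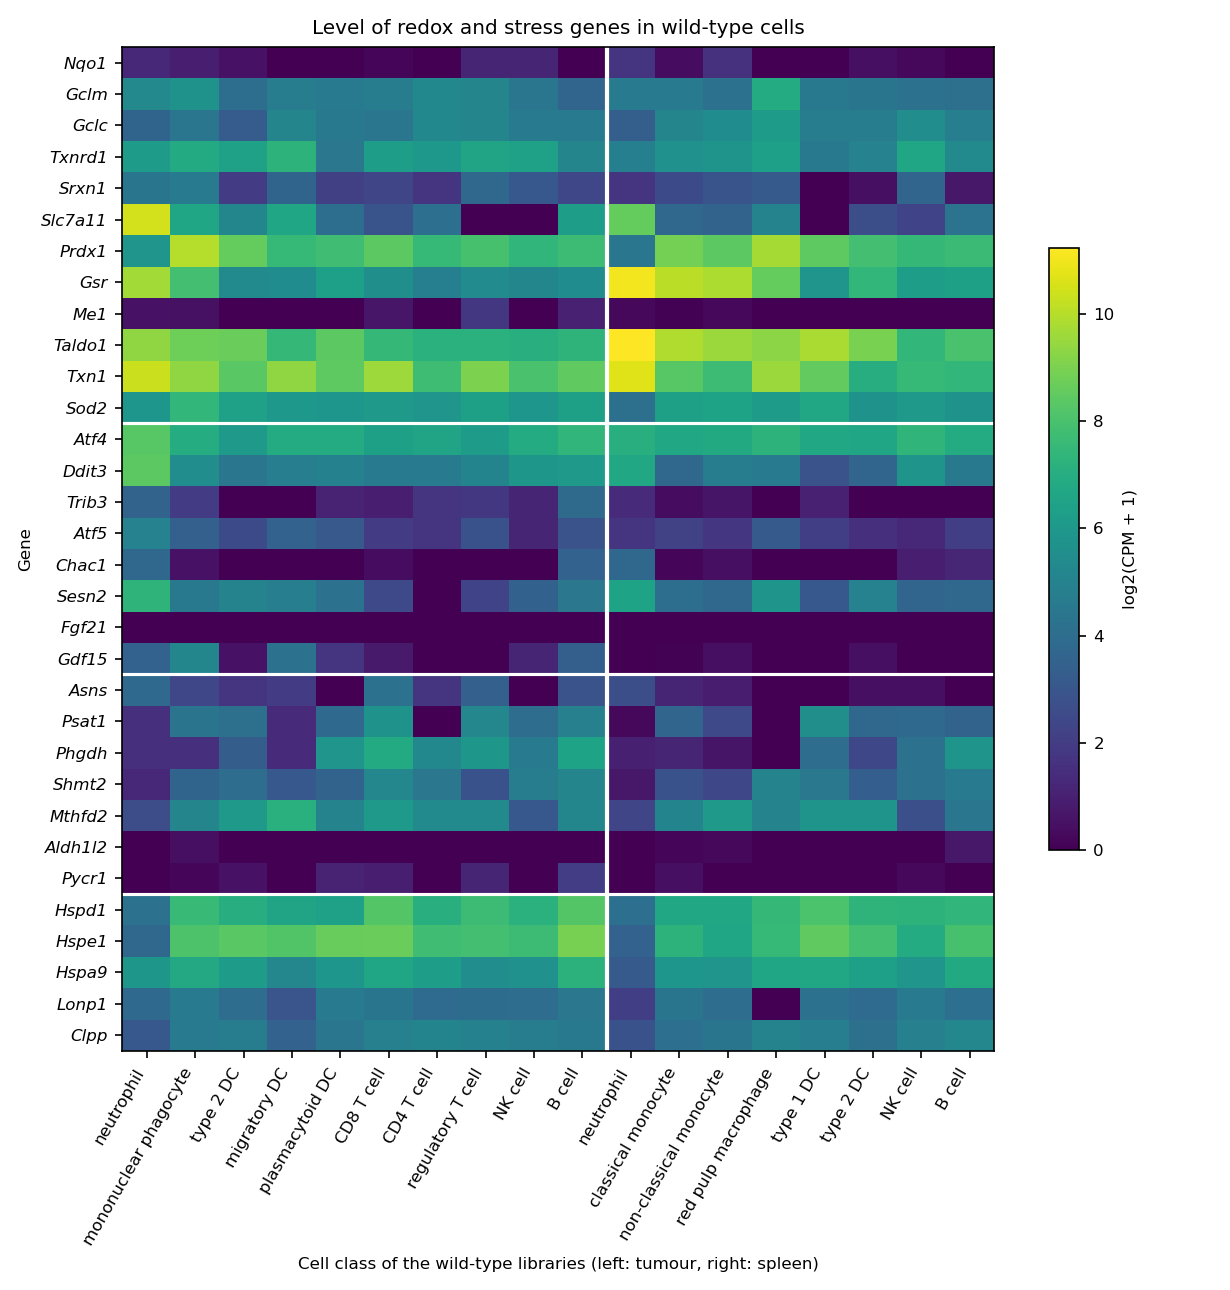
Level of the 32 genes (rows, in their 4 lists) in 10 tumour and 8 spleen cell classes (columns) of the wild-type libraries, as log2(CPM + 1). Tumour and spleen neutrophils carry the highest Slc7a11, Ddit3 and Sesn2, while spleen neutrophils are lowest for Prdx1, Sod2 and the mitochondrial chaperones; rows should not be compared with each other.

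Tumour neutrophils carried more Slc7a11 and Ddit3 transcripts than spleen neutrophils of the same genotype, and less Gsr and Taldo1. Other integrated stress genes differed between genotypes: in deficient mice the log2 ratio of tumour over spleen was 0.10 for Atf4 and 0.03 for Asns, and Chac1 was at -0.01 in wild-type and -0.59 in deficient mice. Slc7a11 was 376 CPM in wild-type spleen, 346 in deficient spleen, 1401 in wild-type tumour and 1248 in deficient tumour neutrophils. Both tumour libraries were above both spleen libraries, with log2 ratios of tumour over spleen of 1.90 [1.82, 1.98] in wild-type and 1.85 [1.67, 2.02] in deficient mice. Ddit3 in the same order was 107, 91.6, 332 and 243 CPM, log2 ratios of 1.64 [1.48, 1.80] and 1.41 [1.00, 1.79]. Gsr ran the other way, at 2075, 1941, 812 and 751 CPM, with log2 ratios of -1.35 [-1.43, -1.28] and -1.37 [-1.58, -1.17]. Taldo1 was 2399, 2063, 655 and 1115 CPM, log2 ratios of -1.87 and -0.89. For each of these 4 genes, the tumour levels did not overlap the spleen levels of either genotype. The share of all genes so separated was not counted, and 1.5-fold differences between the organs were common. In wild-type neutrophils 20.7% of all genes were higher and 42.5% lower in the tumour, and in deficient ones 29.8% and 28.8%.

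Of the 32 members, 24 reached 20 UMIs summed over both wild-type neutrophil libraries. Of these, 15 were at least 1.5-fold higher in the tumour and 2 lower, where 20.7% and 42.5% of all genes that reached the minimum were higher and lower. The median log2 ratio was 1.26 for these members and -0.38 for all genes. In the deficient libraries 19 members reached the minimum, 11 were higher and 3 lower, against 29.8% and 28.8% of all genes, with medians of 0.74 and 0.00. Low members reach the minimum more easily where they are high, so these counts describe the members that reached it. By median-of-ratios scaling, which shifted every wild-type log2 ratio by 0.38, 19 wild-type members were higher and 2 lower. The genotypes shared 9 higher members, 60% of the wild-type and 81.8% of the deficient list, and 2 lower members, Gsr and Taldo1. All 17 wild-type calls held under every alternative that could be computed (the fold limit and the filter aside), and 11 of 14 in deficient mice. The calls lost there were Chac1, Gclm and Taldo1, the last at -0.38 with classes from Leiden clusters. Besides Slc7a11 and Ddit3, the shared ones were Gclm, Txnrd1, Prdx1, Sod2, Sesn2, Gdf15 and Hspa9.

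Among the factors, Atf4 was 134 and 131 CPM in wild-type and deficient spleen neutrophils and 319 and 140 in tumour neutrophils. It was thus higher in the tumour only in the wild-type library by the 1.5-fold rule (log2 1.25 [1.10, 1.40], against 0.10). Atf5 was 2.35 CPM in spleen and 30.7 in tumour neutrophils of wild-type mice (3.71 [2.86, 4.66]), and Trib3, a pseudokinase target of ATF4 and CHOP, 1.51 and 10.9 (2.85). Gdf15 had 0 UMIs in both spleen libraries. It was 10.4 CPM in wild-type tumour neutrophils, at least 20.7-fold higher. In deficient tumour neutrophils it was 94.8 CPM, at least 131.5-fold higher, but from 25 UMIs in 3 cells. Sesn2 was 89.3 and 90.8 CPM in spleen and 158 and 152 in tumour neutrophils, nearly equal between genotypes with the marker classes. With classes from Leiden clusters it was 85.1 and 57.4 CPM in spleen and 155 and 115 in tumour neutrophils.

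Among the redox enzymes, Srxn1 was 2.18 CPM in spleen and 19.4 in tumour neutrophils of wild-type mice (log2 3.15). Prdx1 was 20.5 and 20.2 CPM in spleen and 57.2 and 216 in tumour neutrophils, and Sod2 16.9 and 18.5 against 59.6 and 118. Txnrd1 was 27.5 and 30.04 against 70.4 and 114. Txn1 differed less, with a wild-type log2 ratio of -0.35 (1640 to 1284 CPM). Of the chaperones, Hspa9, mitochondrial HSP70, went from 8.05 to 60.5 CPM in wild-type (2.91 [2.42, 3.42]) and from 6.49 to 19.0 in deficient mice. Lonp1, a mitochondrial protease, went from 3.19 to 13.2 CPM in wild-type. Hspd1 and Hspe1 passed 1.5-fold in the deficient libraries, 20.4 to 68.3 and 9.13 to 30.3 CPM. Asns was 5.54 and 13.2 CPM in wild-type spleen and tumour neutrophils (1.26). Chac1 was lower in deficient tumour than deficient spleen neutrophils, 15.2 against 22.8 CPM, from 4 UMIs (-0.59 [-2.49, 0.81]).

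**Figure D2:**
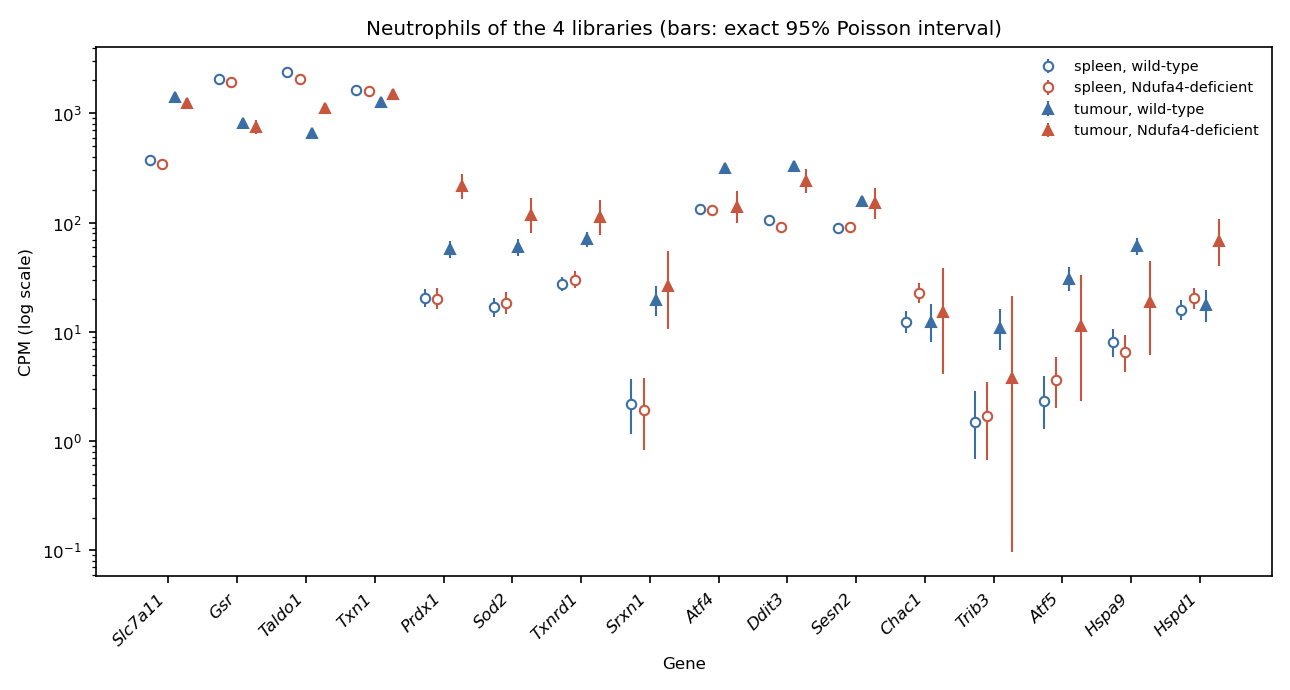
Level of 16 genes in neutrophils of the 4 libraries, in CPM on a log axis, with exact 95% counting intervals. Slc7a11 and Ddit3 are higher in both tumour libraries than in both spleen libraries, and Gsr and Taldo1 are lower in both tumour libraries.

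The neutrophil class held different mixtures in the organs. Retnlg, a gene of circulating neutrophils, was detected in 329 of 581 wild-type and 33 of 76 deficient tumour neutrophils, and in 1925 of 2179 and 1293 of 1434 spleen neutrophils. Among Retnlg-positive cells, Slc7a11 was 375 and 347 CPM in spleen and 1283 and 1410 in tumour, log2 ratios of 1.78 and 2.02. Among cells without a Retnlg UMI it was 388 and 339 against 1574 and 1104, log2 ratios of 2.02 and 1.71. Gsr was also lower in the tumour in each of these subsets, with log2 ratios from -1.74 to -1.05, and Ddit3 higher, from 0.85 to 1.89. Taldo1 had log2 ratios of -1.56 and -0.34 among Retnlg-positive cells, so that the deficient ratio was within 1.5-fold there, and of -2.30 and -1.50 among the others. Atf4 in Retnlg-positive deficient cells was at -0.68 [-1.74, 0.22]. Immature neutrophils of the spleen, 28 and 297 cells left out of the class, had 2.24 and 15.7 CPM of Slc7a11 and 11.2 and 10.7 of Ddit3. Summed macrophage markers in neutrophils were 569 and 713 CPM in the tumour and 345 and 340 in the spleen, with median UMIs per cell of 3659 and 3507 against 2602 and 2593. The part of these differences in the result was not tested.

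Other genes of the pathways differed in both directions in neutrophils. Of 32 further NRF2 and redox genes that reached the minimum in wild-type, 12 were higher and 11 lower in the tumour, where 20.7% and 42.5% of all genes were; the same shares stand beside the 5 lists that follow. The ferritin chain Fth1, which stores iron, was 3187 and 39304 CPM in wild-type spleen and tumour (log2 3.62) and 3262 and 21954 in deficient mice (2.75). Of 8 NRF2 regulators, 3 were higher and 1 lower. Maff, a small MAF partner of NRF2, went from 4.36 to 158 CPM, and Bach1, a repressor at antioxidant elements, from 352 to 148 in wild-type and from 353 to 152 in deficient mice.

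Of 8 kinase and phosphatase genes in wild-type neutrophils, 3 were higher and 3 lower. Ppp1r15a, which returns eIF2alpha to its unphosphorylated form, went from 48.8 to 545 CPM (3.48), and Eif2ak3, the kinase PERK, from 105 to 37.8 (-1.47). Of 24 further ATF4 targets, 10 were higher and 4 lower. Atf3, a factor induced by ATF4, went from 35.4 to 519 CPM in wild-type and from 30.8 to 561 in deficient mice. Of 18 genes of the endoplasmic reticulum response, 10 were higher and 4 lower, with the secreted factor Manf going from 12.2 to 100.2 CPM. Of 14 further mitochondrial proteostasis genes, 5 were higher and 2 lower.

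Across the other 5 classes present in both organs, Slc7a11 was higher and Gsr lower in the tumour in most. In classical monocytes Slc7a11 was 12.6 and 7.95 CPM in wild-type and deficient spleen and 137 and 68.4 in tumour, log2 ratios of 3.45 [3.24, 3.66] and 3.11 [2.74, 3.49]. In non-classical monocytes it was 10.8 and 9.08 against 98.0 and 71.0. In type 2 dendritic cells it was 5.53 and 3.26 against 34.2 and 8.54, and in B cells 18.2 and 5.94 against 77.8 and 75.1. NK cells stood apart, with 3.72 and 1.92 CPM in spleen and 0 UMIs and 0.860 CPM in tumour. Slc7a11 was thus at least 1.5-fold higher in 5 of 6 classes in each genotype, neutrophils included. The share of all genes higher in as many classes was not counted. With classes from Leiden clusters this held in 4 of 5 wild-type and 3 of 5 deficient classes.

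Gsr was at least 1.5-fold lower in the tumour in 5 of 6 classes in each genotype, and below the spleen in the remaining class, non-classical monocytes (918 and 717 CPM in spleen, 698 and 573 in tumour). It was 1055 and 857 CPM in spleen classical monocytes and 379 and 311 in the tumour. In type 2 dendritic cells it was 174 and 137 against 40.4 and 35.7, and in NK cells 74.9 and 63.7 against 34.1 and 26.6. In B cells it was 82.5 and 84.7 against 43.1 and 34.8. Gclc, the catalytic subunit of glutamate-cysteine ligase, was lower in 4 of 6 classes in each genotype, all but neutrophils and B cells. Sod2 was at least 1.5-fold higher in 5 of 6 classes in wild-type and 4 of 6 in deficient mice. The share of all genes called in as many classes was not counted for these members either. By class and genotype, 27.5% to 42.5% of all genes were lower in the tumour and 9.73% to 29.8% higher. Gsr is abundant in neutrophils, and neutrophil markers summed to more in the spleen classes: 1797 and 1120 CPM in classical monocytes against 693 and 243 in the tumour, and 1193 and 980 in NK cells against 117 and 14.2. Their part in the Gsr result was not tested.

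In classical monocytes 12 of 26 members were higher and 3 lower in wild-type tumour (all genes, 14.2% and 41.9%), and 9 of 24 higher and 2 lower in deficient tumour (13.4% and 39.4%). The 9 higher members of the deficient list were all among the 12 of wild-type: Slc7a11, Srxn1, Txnrd1, Sod2, Ddit3, Gclm, Txn1, Sesn2 and Asns. Txn1 was 317 and 307 CPM in spleen and 648 and 581 in tumour, and Ddit3 12.4 and 14.9 against 37.2 and 22.6. Called in wild-type alone were Gdf15, with 1 UMI in the spleen (0.0524 CPM) and 9.95 CPM in the tumour (7.57 [5.04, 12.89]), Trib3 at 0.315 and 2.95, and Atf5 at 3.62 and 10.6. In non-classical monocytes 11 members were higher and 2 lower in wild-type (10.5% and 28.1% of all genes) and 4 and 1 in deficient mice (9.73% and 27.9%). Slc7a11, Txn1, Sod2 and Shmt2 were the higher members of both, and Gclc was lower in both. Higher in wild-type alone by the 1.5-fold rule were Atf5 (2.47 and 22.7 CPM), Txnrd1 (54.3 and 140), Sesn2, Gclm, Hspe1, Srxn1 and Lonp1, and lower Mthfd2 (63.5 and 39.8).

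In type 2 dendritic cells 9 members were higher and 2 lower in wild-type (12.2% and 36.7% of all genes) and 6 and 2 in deficient mice (15.7% and 37.3%), and the 6 were all among the 9: Txnrd1, Slc7a11, Prdx1, Txn1, Sod2 and Phgdh. Txn1 was 128 and 123 CPM in spleen and 328 and 347 in tumour, and wild-type alone added Ddit3, Shmt2 and Clpp; Gsr and Gclc were lower in both. In NK cells 1 was higher and 3 lower in wild-type (12% and 31.6%) and 3 and 4 in deficient mice (13.8% and 36.3%), with no higher member in common. Hspe1 was higher in wild-type NK cells (119 and 210 CPM), and Phgdh, Txn1 and Mthfd2 in deficient ones. Gsr and Gclc were lower in both genotypes, Srxn1 in wild-type, and Slc7a11 and Sesn2 in deficient NK cells. In B cells 10 were higher and 3 lower in wild-type (12.1% and 27.5%) and 4 and 6 in deficient mice (10.4% and 33.9%). Slc7a11 and Txn1 were higher and Gsr lower in both; Ddit3 (22.1 and 67.3 CPM), Hspe1 and Hspd1 were higher in wild-type and Lonp1 and Gclm in deficient B cells, while Taldo1 and Clpp were lower in wild-type and Hspa9 in deficient ones. Sesn2, Psat1, Phgdh and Mthfd2 went in opposite directions in B cells of the genotypes, and Psat1, Phgdh and Mthfd2 changed sign under other processing, as did the wild-type ratio of Hspd1. Of the B cell calls, 3 of 13 in wild-type (Slc7a11, Ddit3 and Gsr) and 4 of 10 in deficient mice (Slc7a11, Gsr, Lonp1 and Sesn2) held under every alternative that could be computed, fold limit and filter aside. In NK cells 3 of 4 and 3 of 7 held, in type 2 dendritic cells 6 of 11 and 4 of 8, in classical monocytes 13 of 15 and 9 of 11, and in non-classical monocytes 9 of 13 and 2 of 5. The Leiden classes held 0 tumour classical monocytes, so that this alternative was missing for classical monocytes and their share is not comparable with the others. Over all pairs of member and class, 73 of 137 were called in wild-type, 53.3% against 48.3% of all gene pairs, with 58 higher and 15 lower. In deficient mice 55 of 129 were, 42.6% against 49.3%, with 37 higher and 18 lower. Median-of-ratios scaling shifted the ratios of these 5 classes upward by 0.21 to 0.43 on the log2 scale. By it, 19 members were higher and 1 lower in wild-type classical monocytes, 13 and 1 in wild-type B cells, and 5 and 2 in wild-type NK cells.

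**Figure D3:**
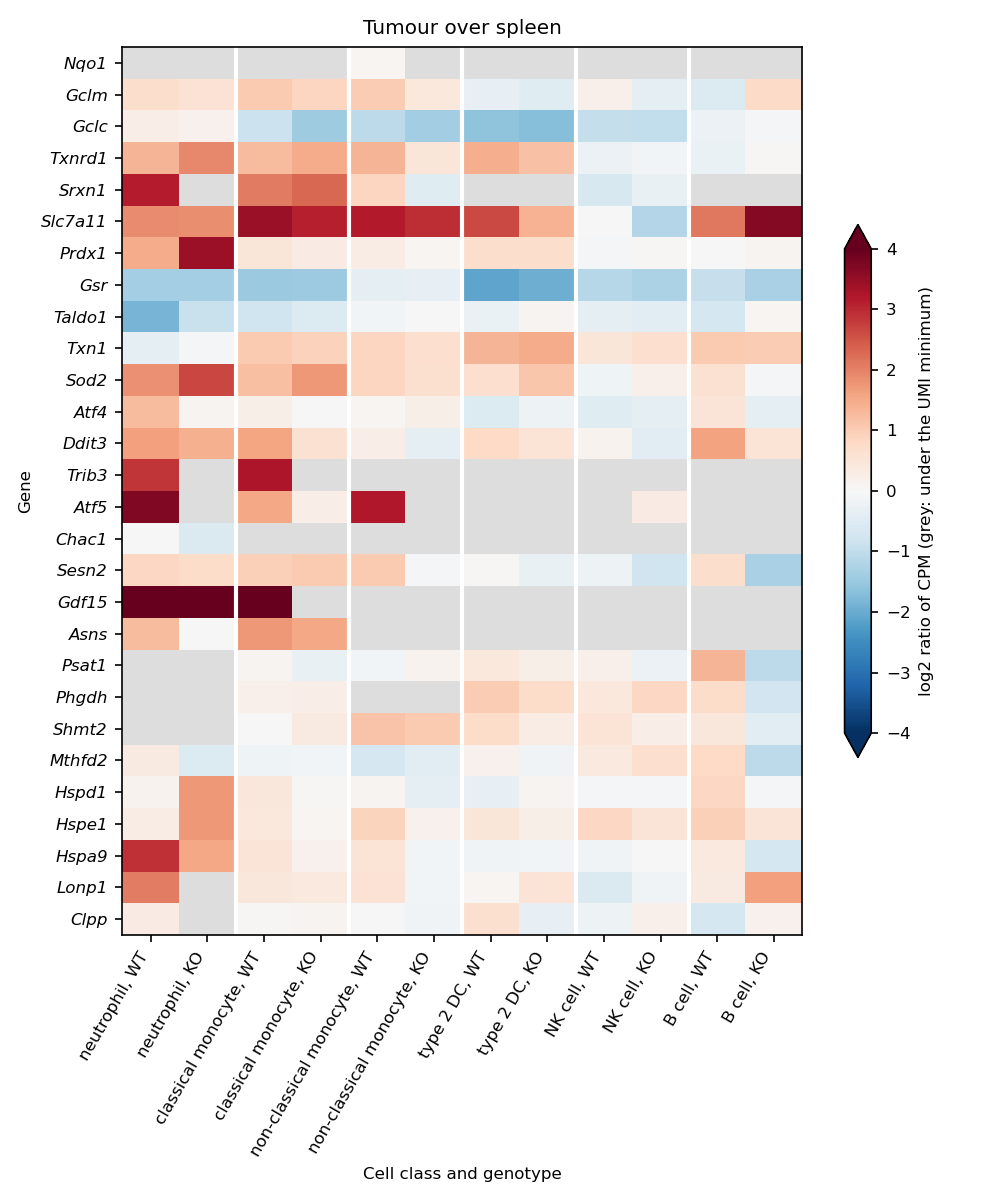
Log2 ratio of tumour over spleen for 28 members (rows) in 6 classes, wild-type and Ndufa4-deficient side by side (columns). Colours end at 4 and -4, and grey marks pairs under 20 UMIs. The Gsr row is below 0 throughout, and the Slc7a11 row is above 0 in neutrophils, monocytes, type 2 dendritic cells and B cells.

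Between genotypes, tumour phagocytes (macrophages and monocytes) of the deficient library had lower Gdf15 than those of the wild-type library, and lower Slc7a11 and Ddit3 in the mix of subsets as found. With the deficient subsets weighted to the wild-type mix, Gdf15, Asns, Psat1 and Shmt2 were the members that remained at least 1.5-fold lower, as values without an interval. Gdf15 was 34.2 CPM [31.7, 37.0] in wild-type and 9.47 [7.88, 11.3] in deficient phagocytes, a log2 ratio of -1.86 [-2.14, -1.58]. Slc7a11 was 98.8 and 65.0 CPM (-0.60 [-0.72, -0.49]), and Ddit3 45.1 and 30.05 (-0.59 [-0.76, -0.41]). Of the 28 members that reached the minimum, 10 were at least 1.5-fold lower and 2 higher, against 13.6% and 10.3% of all genes. Below 0 were 22 of the 28 members, and 6434 of all 12141 genes. The median log2 ratio was -0.48 for these members and -0.03 for all genes. Me1, Fgf21, Aldh1l2 and Pycr1 did not reach the minimum.

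Of the 7 integrated stress members that reached it, 4 were lower and 1 higher. Besides Gdf15 and Ddit3 the lower ones were Trib3, 3.00 and 1.13 CPM (-1.41 [-2.34, -0.57]), and Atf5, 9.96 and 4.96 (-1.01 [-1.43, -0.59]). Atf4 itself, whose protein level is set mainly by translation, was 123 and 106 CPM (-0.22). Sesn2 had a log2 ratio of -0.32. Chac1 was 0.474 and 0.826 CPM, with an interval that spans 0 (0.80 [-0.61, 2.25]).

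Of 5 amino acid and one-carbon enzymes, 3 were lower and 1 higher. Psat1 was 18.8 and 10.4 CPM (-0.86 [-1.15, -0.57]), Shmt2, mitochondrial serine hydroxymethyltransferase, 11.1 and 6.31 (-0.82), and Asns 4.32 and 2.48 (-0.80 [-1.43, -0.20]). Asns lies on chromosome 6 (chr6:7675169-7693254), as does Ndufa4 (chr6:11900292-11907497). Phgdh went the other way at 1.90 and 3.00 CPM (0.66 [-0.02, 1.36]), and Mthfd2 was 33.2 and 41.8 (0.33). Members of serine and one-carbon metabolism thus lay on both sides of 0.

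Of 11 redox members, 3 were lower: Slc7a11, Srxn1 at 23.6 and 14.6 CPM (-0.69 [-0.94, -0.44]) and Nqo1 at 0.948 and 0.376 (-1.34 [-3.12, 0.15]). Prdx1 was 1015 and 703 CPM (-0.53) and Gclc 20.1 and 14.3 (-0.48). Txnrd1, Gclm and Txn1 had log2 ratios of -0.14, -0.31 and -0.04. Sod2 was higher within 1.5-fold, at 175 and 245 CPM (0.49), as were Taldo1, 432 and 514 (0.25), and Gsr, 235 and 255 (0.12). All 5 mitochondrial chaperones and proteases were below 0 and within 1.5-fold. Hspd1 was 194 and 133 CPM (-0.55), Hspa9 108 and 76.3 (-0.50), Hspe1 273 and 196 (-0.48), Clpp 24.1 and 17.5 (-0.46), and Lonp1 had a log2 ratio of -0.10.

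**Figure D4:**
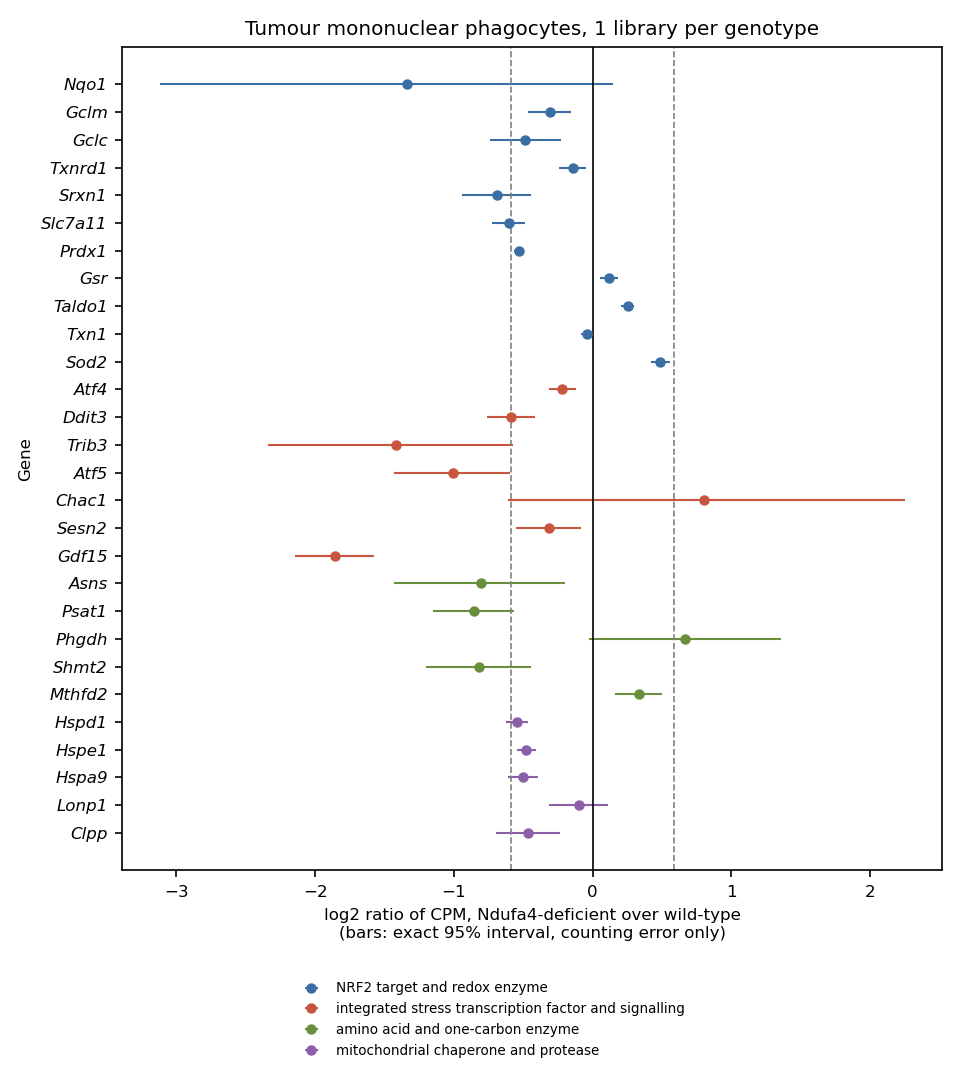
Log2 ratio of Ndufa4-deficient over wild-type tumour phagocytes for 28 members, with exact 95% counting intervals; dashed lines mark 1.5-fold. Gdf15 is lowest among the members with narrow intervals, all 5 mitochondrial genes lie below 0, and Sod2, Mthfd2 and Taldo1 lie above 0.

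Phagocytes of the libraries differed in kind. Macrophage markers summed to 12981 CPM in wild-type and 8344 in deficient phagocytes, classical monocyte markers to 5098 and 8337, neutrophil markers to 1026 and 337, platelet markers to 131 and 3.31 and melanoma markers to 27.6 and 24.3. Median UMIs per cell were 14201 and 13650. When the deficient subsets were weighted to the wild-type mix, 4 members were at least 1.5-fold lower and 1 higher. The lower ones were Gdf15 (-0.76), Asns (-0.78), Psat1 (-0.86) and Shmt2 (-0.84). Slc7a11 was then at 0.06, Nqo1 at 0.23, Trib3 at 0.30 and Chac1 at -0.25, each of the opposite sign, and Ddit3 was at -0.07, Srxn1 at -0.22, Atf4 at -0.07 and Atf5 at -0.58, all within 1.5-fold. These weighted values have no interval and rest in part on deficient subsets of 36 (Arg1), 47 (Ccl8 or Vcam1) and 28 cells (no marker). In Arg1 cells Nqo1 was under the UMI minimum and the Trib3 ratio was 0.71 [-1.28, 2.26]. Asns was not detected in deficient Arg1 cells. Of the 12 calls, those of Asns, Gdf15 and Shmt2 held under every alternative that could be computed, fold limit and filter aside. Asns had no value after thinning. The lower Slc7a11, Ddit3, Srxn1, Trib3 and Nqo1 of the pooled class therefore did not hold at a fixed mix, while Gdf15 was below wild-type in each of 6 subsets. Gdf15 was under the UMI minimum in Ace or Adgre4 cells, and its interval spanned 0 in Arg1, Ccl8 or Vcam1 and Ly6c2 cells (-0.27 [-0.82, 0.29] in the last). It lay below 0 in Cxcl9 cells and in cells with no marker (-3.73 [-9.04, -1.21]). The share of all genes below wild-type in each subset was not counted.

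Of these subsets, the one named Ace or Adgre4 held all cells of the non-classical monocyte gate (153 wild-type and 144 deficient cells), whatever their level of these genes. The other phagocytes were placed by the marker with the highest level: Arg1 (282 and 36), Cxcl9 (79 and 162), Ccl8 or Vcam1 (183 and 47) and Ly6c2 (297 and 479). Those without a UMI of these markers formed the last subset (174 and 28). Slc7a11 was highest in Arg1 cells, 211 CPM in wild-type and 212 in deficient mice (0.01). It was 71.7 and 35.1 in Cxcl9 cells (-1.03), 57.4 and 64.7 in Ly6c2 cells (0.17) and 49.6 and 75.4 in Ccl8 or Vcam1 cells (0.61). Its genotype difference thus changed sign between subsets. Arg1 cells were 36 of the deficient phagocytes against 282 in wild-type.

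Gdf15 was highest in Ccl8 or Vcam1 cells, 85.8 and 64.1 CPM (-0.42 [-0.98, 0.09]). In Cxcl9 cells it was 25.9 and 4.30 (-2.58 [-3.60, -1.66]) and in Arg1 cells 27.3 and 17.5 (-0.64 [-1.80, 0.33]). Its UMIs were concentrated: the 58 wild-type phagocytes with most Gdf15 held 90.6% of 650 UMIs. Ddit3 was below wild-type in 5 of 6 subsets, most in Cxcl9 cells (-1.19 [-1.61, -0.77]), and above it in Ccl8 or Vcam1 cells (0.86 [0.30, 1.38]).

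Hspd1 and Hspe1 were below wild-type in 6 of 6 subsets, Hspd1 by -0.13 to -0.81, and the share of all genes with that direction was not counted. The Hspd1 interval spanned 0 in Arg1 cells [-0.52, 0.24] and in cells with none of the markers (-0.32 [-0.72, 0.06]). Prdx1 was below in 5 of 6, with log2 ratios from -0.45 to -0.04, and above among cells with none of the markers (897 and 1300 CPM). Sod2 was above wild-type in 4 of 6, including Arg1 cells (0.79 [0.52, 1.05]), Cxcl9 cells (259 and 428 CPM, 0.73) and Ccl8 or Vcam1 cells (0.57). The 6 subsets come from the same pair of libraries.

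**Figure D5:**
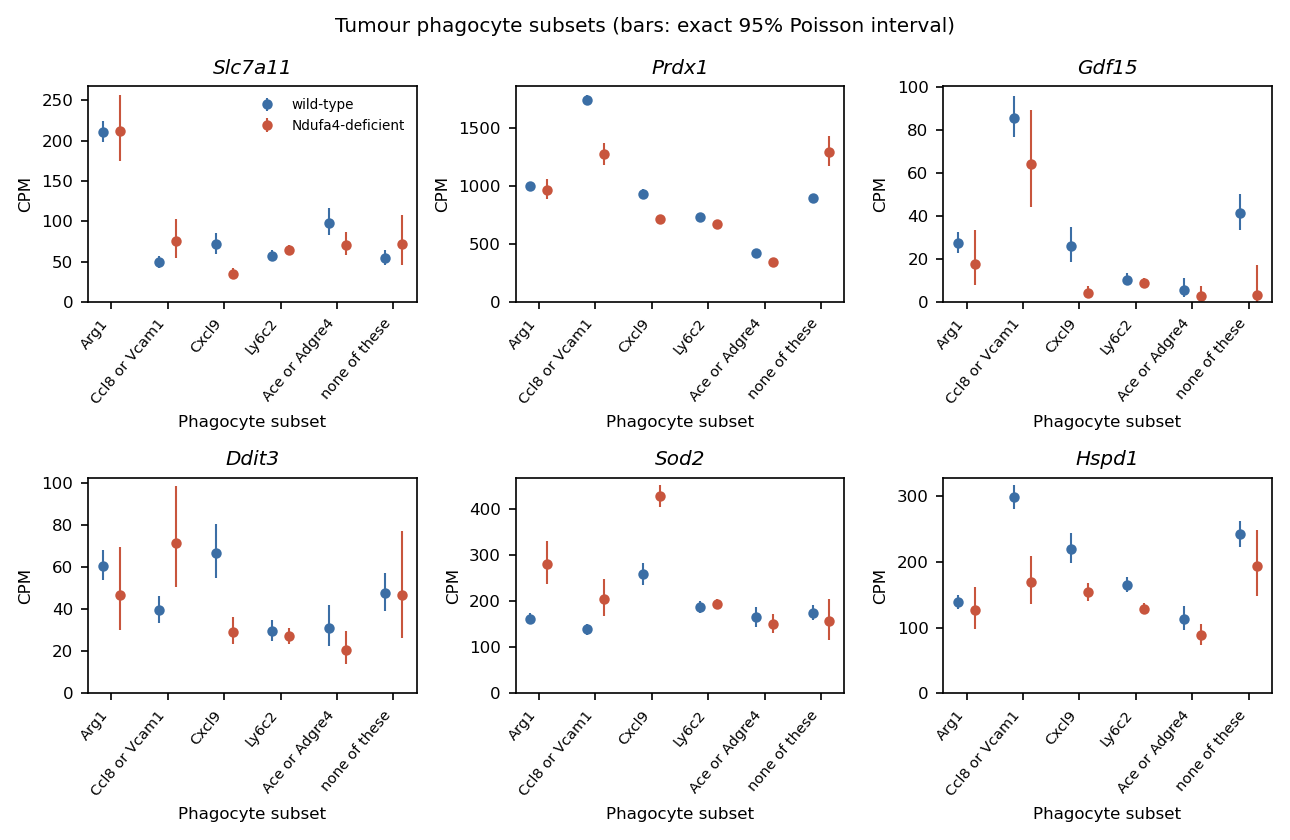
Level of Slc7a11, Prdx1, Gdf15, Ddit3, Sod2 and Hspd1 in 6 subsets of tumour phagocytes, in CPM with exact 95% counting intervals, wild-type beside Ndufa4-deficient. Slc7a11 is highest in Arg1 cells at 211 and 212 CPM. Gdf15 is below wild-type in every subset, though under the UMI minimum for a ratio in Ace or Adgre4 cells.

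By gate rather than subset, 5 of 26 members were lower and 1 higher in macrophage-gated phagocytes (13.4% and 9.51% of all genes). Psat1, Shmt2, Gdf15 (51.5 and 25.9 CPM, -0.99), Asns and Gsr (94.1 and 62.6, -0.59) were lower, and Sod2 was 170 and 282 (0.74). In classical monocytes 8 of 26 were lower and 1 higher (9.58% and 11.2%). There Gdf15 was 9.95 and 1.07 CPM (-3.22), Slc7a11 137 and 68.4 (-1.01 [-1.17, -0.85]) and Ddit3 37.2 and 22.6 (-0.72). Trib3, Atf5 (10.6 and 4.42), Srxn1, Asns and Gclc were also lower, and Phgdh was higher (1.40 and 3.08). In non-classical monocytes, the same cells as the Ace or Adgre4 subset, 7 of 21 were lower and none higher (10.1% and 9.08%). Atf5 was 22.7 and 1.43 CPM there (-3.99 [-7.09, -2.02], 2 UMIs in the deficient library), Sesn2 26.3 and 11.5, and Txnrd1 140 and 79.6. Hspa9 (82.4 and 48.8), Clpp, Srxn1 and Ddit3 were the others.

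Among other pathway genes in phagocytes, some lists held several lower genes and others none. Of 35 further NRF2 and redox genes, 9 were lower and 4 higher, where 13.6% and 10.3% of all genes were lower and higher, as for the lists that follow. Hmox1, haem oxygenase, was 1039 and 496 CPM (-1.07), Osgin1 12.2 and 6.16 (-0.98), the glutathione exporter Abcc1 68.6 and 37.8 (-0.86), and the glutathione transferase Mgst2 0.738 and 1.43 (0.95). None of 9 NRF2 regulators differed by 1.5-fold. Of 28 ATF4 targets, 6 were lower and 2 higher, with the mTORC1 inhibitor Ddit4 at 55.0 and 23.2 CPM (-1.24), the factor Jdp2 at 58.6 and 31.8, and the amino acid transporter Slc7a5 at 3.85 and 1.88.

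Of 16 further mitochondrial proteostasis genes 3 were lower, none higher and 15 below 0, with a list median of -0.09. Of all 12141 genes that reached the minimum, 6434 were below 0. Prohibitin Phb was 28.2 and 18.0 CPM (-0.65). Of 10 kinase and phosphatase genes 1 was higher and none lower, Eif2ak2, the interferon-induced kinase PKR, at 73.8 and 122 CPM (0.73). None of 19 genes of the endoplasmic reticulum response differed by 1.5-fold, and the largest ratio was that of Atf6, 87.7 and 125 CPM (0.51).

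Tumour neutrophils of the deficient library, only 76 cells against 581, had more Prdx1 and Hspd1 and less Atf4 and Hspa9 than wild-type. Prdx1 was 57.2 CPM in wild-type and 216 in deficient neutrophils (1.92 [1.44, 2.38]), and Hspd1 17.5 and 68.3 (1.96 [1.06, 2.81]). Atf4 was 319 and 140 CPM (-1.18 [-1.70, -0.71]) and Hspa9 60.5 and 19.0 (-1.67 [-3.32, -0.41]). Slc7a11 was close between genotypes at 1401 and 1248 (-0.17 [-0.34, -0.0018]), as was Sesn2 at 158 and 152, though Sesn2 was at -0.43 with classes from Leiden clusters.

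Of the 22 members that reached the minimum, 8 were higher and 5 lower, against 29.2% and 16.5% of all genes. Median-of-ratios scaling shifted these ratios by -0.19 and gave 6 higher and 7 lower. Of the 13 calls, 6 held under every alternative that could be computed, fold limit and filter aside: Prdx1, Hspd1, Gdf15, Atf4, Hspa9 and Atf5. With classes from Leiden clusters Gdf15 was under the UMI minimum, at 3.99 CPM (7 UMIs) in wild-type and 9.30 CPM (3 UMIs) in deficient neutrophils. With classes from Leiden clusters Sod2 was at 0.37, Hspe1 at 0.16 and Txnrd1 at 0.49, each within 1.5-fold. The other higher members were Gdf15 (from 3 deficient cells), Hspe1, Sod2 (59.6 and 118 CPM), Lonp1, Taldo1 (655 and 1115) and Txnrd1 (70.4 and 114). The other lower ones rested on 1 to 3 UMIs in the deficient library and their intervals spanned 0. They were Trib3 (10.9 and 3.79 CPM, -1.52 [-6.88, 1.10]), Atf5 (30.7 and 11.4, -1.43 [-3.75, 0.18]) and Asns (13.2 and 7.59, -0.80 [-3.92, 1.18]). Sod2 was at -0.72 [-2.64, 0.70] among Retnlg-positive cells and at 1.49 [0.77, 2.17] among the others, on opposite sides of 0. Macrophage markers in these cells summed to 569 CPM in wild-type and 713 in deficient mice, and Prdx1 is abundant in phagocytes. The median share of mitochondrial UMIs per cell was 1.54% in wild-type and 0.348% in deficient tumour neutrophils, and 0.396% and 0.487% in spleen neutrophils. The part of these differences in the result was not tested.

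Ddit3 was below wild-type in all 10 tumour classes compared, with log2 ratios from -0.95 to -0.34, and at least 1.5-fold lower in 5 of them. Of the 4656 genes that reached the minimum in all 10 classes, 63 (1.35%) were below 0 in each. It was 67.3 and 34.8 CPM in B cells (-0.95), 23.3 and 12.3 in CD4 T cells (-0.92), 60.6 and 36.3 in NK cells (-0.74 [-1.21, -0.24]) and 32.2 and 20.8 in regulatory T cells (-0.63). In CD8 T cells it was 23.9 and 17.8 (-0.42 [-0.70, -0.14]). The intervals of NK, B and CD8 T cells, phagocytes and neutrophils lay below 0, and those of the other 5 classes spanned it. In the spleen Ddit3 was below wild-type in 3 of 6 classes, with log2 ratios from -0.22 to 0.26. Wild-type tumour neutrophils had the highest Ddit3, 332 CPM, and neutrophils were 14.5% and 1.63% of tumour cells kept. Neutrophil markers were lower in the deficient library in phagocytes, type 2 and migratory dendritic cells, CD8 T cells and B cells. Their part in the Ddit3 result was not tested. The direction in the tumour held in 10 of 10 classes under every alternative that could be computed for all 10, and in 4 of 5 after thinning to 2000 UMIs per cell. In phagocytes the Ddit3 call lay at the 1.5-fold limit (-0.586). It was lost with at least 1000 UMIs per cell (-0.582), by median-of-ratios scaling (-0.556), after thinning (-0.510) and at the wild-type mix of subsets (-0.07).

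Slc7a11 was below wild-type in each of the 7 tumour classes where it reached the minimum, which held for 31 of 690 genes (4.49%) that reached it in 7 classes. Apart from phagocytes, it was 34.2 and 8.54 CPM in type 2 dendritic cells (-2.001 [-2.86, -1.22]), 97.9 and 40.7 in migratory dendritic cells (-1.27 [-1.72, -0.83]) and 6.56 and 3.11 in CD8 T cells (-1.08 [-1.66, -0.48]). In CD4 T cells, B cells and neutrophils the ratios were -0.49, -0.05 and -0.17. It was also below wild-type in 6 of 6 spleen classes, as were 55 of 1513 genes (3.64%). Neutrophils carry the most Slc7a11, and neutrophil markers in the other 6 of these tumour classes were lower in the deficient library: 334 and 190 CPM in type 2 dendritic cells, 199 and 29.6 in migratory dendritic cells, 133 and 31.9 in CD8 T cells, and 2556 and 1471 in B cells. Their part in the result was not tested. Median-of-ratios scaling left 6 of 7 tumour classes below 0, and thinning left 3 of 4 tumour and 2 of 3 spleen classes. At the wild-type mix of subsets phagocytes were at 0.06.

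In the remaining tumour classes the calls were near the share of all genes in most. Migratory dendritic cells had 6 of 21 members called (22.8% of all genes). Gclc was 33.2 and 140.2 CPM there (2.08 [1.61, 2.58]), Txn1 664 and 1075, and Gdf15 17.3 CPM and 0, at least 9.37-fold lower. Lonp1 was higher and Atf5 lower there, beside Slc7a11, and all 6 held under every alternative that could be computed, fold limit and filter aside. With equal weight for each cell Gdf15 had no ratio, because its deficient level was 0. Type 2 dendritic cells had 4 of 22 called (20%), with Sesn2 at 31.8 and 20.1 CPM, Hspd1 at 126 and 194 and Atf5 at 4.75 and 8.54, beside Slc7a11. Plasmacytoid dendritic cells had 3 of 20 (19.9%): Lonp1, Clpp and Mthfd2 (31.1 and 49.4).

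CD4 T cells, 70 and 143 cells, had 6 of 20 members higher and 1 lower in the deficient library (22.5% and 13.3% of all genes). Psat1 was 0 UMIs and 30.5 CPM, at least 4.35-fold higher, Txn1 210 and 513 (1.29), Prdx1 182 and 373 (1.04), Phgdh 37.4 and 66.1, and Mthfd2 39.7 and 65.3. Txnrd1 was also higher (0.60), but was at -0.08 with equal weight for each cell, and Ddit3 was lower. Of these 7 calls, Psat1 and Txn1 held under every alternative that could be computed. With equal weight for each cell Psat1 had no ratio, because its wild-type level was 0. CD8 T cells had 4 of 26 (15.6%), with Asns at 17.6 and 11.02, Sesn2 at 4.53 and 2.91 and Gdf15 at 0.781 and 1.63, beside Slc7a11. Regulatory T cells had 4 of 21 (21.3%), with Shmt2 at 6.20 and 17.0 and Ddit3 and the ligase subunits Gclm and Gclc lower. NK cells had 3 of 21 (21.5%), Ddit3, Sesn2 and Mthfd2.

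B cells had 10 of 21 members lower and 3 higher in the deficient library (18.8% and 9.26% of all genes). The lower ones included Psat1 (28.4 and 5.50 CPM, -2.37 [-4.73, -0.67]), Phgdh (90.4 and 40.3), Hspa9 (147 and 67.8), Hspd1 (295 and 191) and Atf4 (169 and 93.4), besides Sesn2, Mthfd2, Shmt2, Ddit3 and Sod2. Gclm, Clpp and Gclc were the higher ones. This class held 161 and 78 cells, and Psat1, Phgdh, Shmt2, Mthfd2 and Hspd1 changed sign under at least 1 other processing. Atf4, Clpp, Ddit3, Gclm, Hspa9 and Sesn2 held under every alternative that could be computed, fold limit and filter aside. Over all 10 tumour classes, 69 of 222 pairs of member and class were called, 31.1% against 24.3% of all gene pairs, 29 higher and 40 lower.

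In the spleen few members differed between genotypes: 17 of 165 pairs were called, 10.3% against 13.5% of all gene pairs, 7 higher and 10 lower. Spleen neutrophils had 3 of 23 members called (14.6% of all genes). Chac1 was 12.4 and 22.8 CPM (0.88 [0.43, 1.34]), Atf5 2.35 and 3.60, and Clpp 6.04 and 3.60. None of these 3 calls held under every alternative: Chac1 was at 0.26 and Atf5 at 0.37 with classes from Leiden clusters, and Clpp was lost after thinning. Slc7a11, Ddit3, Gsr and Taldo1 were within 1.5-fold with the marker classes, and the median log2 ratio of the 23 was -0.03. With classes from Leiden clusters Slc7a11 was at -0.84 (366 and 204 CPM), Ddit3 at -0.82 (102 and 57.9) and Taldo1 at -0.65 (2313 and 1477), each past 1.5-fold, and Gsr at -0.50, so that these 4 ratios depend on how the neutrophil class is drawn. Sesn2 moved as well, to -0.57. With these classes Gclc (-0.73), Hspa9 (-0.59), Asns (0.80), Hspd1 (0.91) and Mthfd2 (1.20) also passed 1.5-fold.

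Classical monocytes of the spleen had 3 of 24 called (10.7% of all genes): Srxn1 at 4.82 and 2.65 CPM (-0.86), Slc7a11 at 12.6 and 7.95 (-0.66 [-1.07, -0.27]) and Phgdh at 1.21 and 2.53 (1.07). Non-classical monocytes had 3 of 23 (9.88%): Nqo1 at 2.01 and 0.267 (-2.91 [-8.28, -0.28]), Srxn1 at 6.59 and 10.95 (0.73) and Psat1 at 4.57 and 7.21. Srxn1 thus lay on opposite sides in these monocyte classes, though its call in non-classical monocytes was lost with classes from Leiden clusters. NK cells had 2 of 23 (8.39%), Slc7a11 at 3.72 and 1.92 and Atf5 at 1.49 and 2.56. B cells had 2 of 21 (13.6%), Slc7a11 at 18.2 and 5.94 (-1.61 [-2.77, -0.56]) and Lonp1 at 16.2 and 7.56. With classes from Leiden clusters Slc7a11 was within 1.5-fold in spleen B cells (-0.54) and classical monocytes. Type 2 dendritic cells had 2 of 20 (13.7%), Slc7a11 and Clpp. Type 1 dendritic cells had 1 of 18 (17.9%), Lonp1, and red pulp macrophages 1 of 13 (35.1%), Gclc at 71.5 and 44.0 CPM. Neutrophil markers were 1797 and 1120 CPM in classical monocytes, 1193 and 980 in NK cells, 3614 and 2493 in B cells and 1664 and 483 in type 2 dendritic cells, lower in the deficient library in each of these 4 classes where Slc7a11 was lower. Their part was not tested. Mthfd2 was above wild-type in 7 of 7 spleen classes where it reached the minimum, with log2 ratios from 0.25 to 0.55, as were 52 of the 3502 genes (1.48%) that reached it in 7 classes.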

How the data were processed

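The data are single-cell RNA-seq UMI counts of 4 libraries, 1 per organ and genotype. The deposited values are whole-number UMI counts per gene and cell, written by Cell Ranger 6.0.0, per the file headers; the submitters' processing notes name Cell Ranger 3.1, Seurat 3.1.4 and 3.1, and mm10 and GRCm38 as builds. Which gene annotation was used is not given here in the sources at hand. Per the labels' protocols, 16000 cells were loaded per lane. The number of per-sample columns of no sample was 0.

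From the counts, cells with at least 500 UMIs, 200 genes and at most 10% mitochondrial UMIs were kept. Each cell took the class with the highest marker score (markers scaled to their 99.5 percentile, square root, at least 0.2). Classes were grouped in families, such as phagocytes or dendritic cells. Cells in which a class of another family reached 0.6 of the best score, 312 to 586 per library, were left out in place of a doublet caller. Cells with markers of several classes of the same family were kept. A further 85 to 533 cells per library had no class, and 138 to 248 lay within 0.55 to 0.65, near the limit of 0.6. The gates were set after the data had been seen. Tumour phagocytes joined the macrophage, classical, non-classical and red pulp gates, and T cells were divided by UMIs of Cd8a or Cd8b1, Cd4 and Foxp3.

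UMIs were summed per class and library and divided by the class total (CPM). Intervals are exact: Poisson for a level and conditional binomial for a ratio. A gene was compared at 20 or more UMIs summed over both libraries and called at 1.5-fold; a count of 0 was set to a floor of 3 UMIs in that library for a bound. No p-value was computed, since each group is 1 library. The interval code was tested on simulated data. Every member was accounted for, and each comparison names the members past 1.5-fold, up to 12, with at most 4 genes per further pathway list (6 lists, 123 genes). The members and lists were chosen with earlier results of these data known. Alternatives were 12, among them Leiden classes (2000 variable genes, 30 components, 15 neighbours, resolution 1). Gene positions are GRCm38 and promoters RefSeq GRCm38.p6. Computation used python 3.11.15, numpy 2.4.6, scipy 1.17.1, pandas 2.3.3, igraph 0.11.9 and leidenalg 0.10.2.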

Additional observations from a re-analysis of the deposited data

Results flagged for a closer look

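Atf5 in neutrophils had a log2 ratio of deficient over wild-type of -1.43 in the tumour and 0.62 in the spleen, opposite directions past 1.5-fold in each organ. The tumour value rests on 3 UMIs in the deficient library and its interval spans 0 [-3.75, 0.18]. The difference between the organs was not tested, since each group is 1 library. Srxn1 in non-classical monocytes had log2 ratios of -0.61 [-1.85, 0.56] in the tumour and 0.73 [0.14, 1.31] in the spleen, and this difference was not tested either.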

How the results depend on the processing

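Over all log2 ratios and counts and 12 alternatives, 5162 values kept their direction and moved little, 428 moved and 28 reversed. With the deficient subsets weighted to the wild-type mix, tumour phagocyte Nqo1 was 0.23, Slc7a11 0.0621, Trib3 0.30 and Chac1 -0.25. Thinned to 2000 UMIs per cell, tumour Asns in CD8 T cells was 0.10, Hspd1 in B cells 0.97, and, tumour over wild-type spleen, Srxn1 in NK cells 0.31 and Phgdh and Hspd1 in B cells -0.48 and -0.48. With equal weight per cell, tumour Txnrd1 in CD4 T cells was -0.0821, Shmt2, Mthfd2 and Hspd1 in B cells 0.11, 0.28 and 0.78, and, tumour over wild-type spleen, Mthfd2 and Hspd1 in B cells -0.36 and -0.13. With Leiden classes, tumour B cell Psat1, Phgdh, Shmt2 and Hspd1 were 0.38, 1.05, 0.83 and 0.26, tumour over spleen Slc7a11 in deficient type 2 dendritic cells -0.13, and in B cells Psat1 and Hspd1 -0.53 and -0.39 in wild-type and Psat1 and Phgdh 0.30 and 0.90 in deficient mice. Without the deepest 5% of cells, tumour B cell Hspd1 was 0.67 and, tumour over wild-type spleen, B cell Psat1, Mthfd2 and Hspd1 -0.19, -0.54 and -0.25. Higher members in phagocytes, 2, were 0 when thinned, with Leiden classes and at 2-fold, and 1 with 2-class cells kept, without the deepest 5% and at the wild-type mix; the 10 lower were 4 at 2-fold and 4 at the wild-type mix, and 8 to 11 otherwise. Calls in the other tumour classes, 57, were 31 when thinned, 107 with no filter and 27 at 2-fold. Spleen calls, 17, were 29 with equal weight, 54 with no filter and 4 at 2-fold, and organ calls, 128, were 193 with no filter and 81 at 2-fold. In deficient neutrophils the 11 members higher in the tumour were 20 with no filter and the 3 lower 1 at 2-fold. Apart from the wild-type mix, which changes only the weights, the fold limit and the filter, the cause of these moves was not tested. Depth limits Nqo1, Chac1, Trib3 and all tumour classes of under 150 cells. No paired analysis was possible because each group is 1 library.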
